A study of Sus scrofa with 6 samples.

Results

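The signals of 5 genes, the growth factor genes TGFA, TGFB2 and BMP4, the growth factor receptor gene IGF1R and the prostaglandin synthase gene PTGS2, were compared in 2 epithelial cell lines of the pig small intestine. TGFA and PTGS2 had signals on every array of IPEC-J2 and none above the lowest value of the table on any array of IPEC-1. TGFB2 showed the opposite, with all 4 of its probe sets at that lowest value on every IPEC-J2 array. BMP4 was measured above background in both cell lines, at a lower level in IPEC-J2. Signals of IGF1R were lower in IPEC-J2 as well, with all means below the background level. Every probe set whose only gene symbol was one of these names was taken, which gave 9 probe sets of 23999 and 5 genes of 6765. The genes were selected on the difference between the cell lines in these same signals, so their differences are given as a description, without a test.

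IPEC-1 and IPEC-J2 are spontaneously immortalised, non-transformed lines from newborn piglets that grow as polarised monolayers on permeable membranes. Total RNA of untreated cells, 500 ng per culture, was measured on 6 Affymetrix Porcine Genome Arrays, 1 per culture and 3 per line. Both lines were kept at 39 °C in medium with 5% foetal calf serum, 1% insulin-transferrin-selenium and epidermal growth factor (EGF) at 5 ng/mL, at passages 78 to 98, and grew on the inserts for 7 days according to the sample labels, where the methods give a longer culture. The methods describe independent experiments, and each line is represented by its own cultures only. A single cell bank number stands in the labels for both lines, whereas the methods list separate numbers, so that the line of each array rests on its sample title. The replicates are cultures, so that the p-values rest on the spread between these cultures. A line at the lowest value of the table on all its arrays shows no spread. SEs and p-values there do not measure its spread between cultures. EGF and insulin were thus supplied to all cells from the medium. Cell numbers and RNA content per cell cannot be told apart from gene activity in such bulk RNA.

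Growth factors of this kind act on the cells that secrete them and on neighbouring cells. TGFA encodes transforming growth factor alpha, a membrane-bound ligand of the EGF receptor that is released by proteases and drives epithelial growth and repair. TGFB2 encodes a ligand of the transforming growth factor beta receptors, which restrain epithelial growth through SMAD proteins, and BMP4 a bone morphogenetic protein, which in the intestine opposes stem cell renewal and favours differentiation. IGF1R is the tyrosine kinase receptor of the insulin-like growth factors. PTGS2 encodes cyclooxygenase-2, the inducible enzyme that makes the precursor of all prostaglandins, mediators of mucosal repair and inflammation.

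The values are log2 signals as deposited, 1 per probe set and array. The lowest value on every array was exactly 4.00, the log2 of 16. Signals at this floor have no order among each other. It held 40.5 to 48.3% of the probe sets per array, the most on IPEC-J2 replicate 1 and the fewest on IPEC-J2 replicate 2. A background level was taken for each line as the 95th percentile of signals that rose above the floor on only 1 of its 3 arrays, 7.85 for IPEC-1 cells and 7.78 for IPEC-J2 cells. Where the mean of the dimmer line lay below its level, the fold is given as "at least", against the level of that line. Such a fold holds only if a floor value stands for a transcript below that level, which an IGF2 probe set described below does not bear out. No fold is given where the mean of the brighter line lay below that level as well. Some cultures carry a common note in the labels, IPEC-1 replicate 1 with IPEC-J2 replicate 3 (note A) and IPEC-1 replicate 2 with IPEC-J2 replicate 1 (note B). Within a line, arrays correlated with r between 0.969 and 0.988 across 11006 probe sets above the floor on all arrays.

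The labelled cell type was checked with marker genes. Of 17 epithelial probe sets for 12 genes, 11 exceeded the background level in IPEC-1 and 13 in IPEC-J2. E-cadherin (CDH1, means of 12.63 and 12.65) and EPCAM (13.39 and 13.55) were bright in both lines, while villin (VIL1, 6.99 and 13.89) was brighter in the IPEC-J2 line (adjusted p = 0.0206 from limma). The brighter probe set of claudin 3 (CLDN3, 4.00 and 8.28), claudin 7 (CLDN7, 10.44 and 11.53) and ezrin (EZR, 11.82 and 13.26) were also higher there (adjusted p = 7.13e-05, 0.0228 and 0.0014 from limma). Keratin 19 (KRT19, 13.08 and 12.28) and 1 of 3 probe sets of occludin (OCLN, 11.64 and 10.77) were lower in IPEC-J2 (adjusted p = 0.00782 and 0.0073 from limma). This made 4 epithelial probe sets called higher and 2 called lower. Of 17 stromal probe sets for 10 genes, 12 were at the floor throughout IPEC-1 and 10 throughout IPEC-J2, and COL3A1, DCN, LUM, DES and ACTA2 were at the floor on all 6. Means exceeded the background level for 3 stromal probe sets in IPEC-1 and 4 in IPEC-J2. Among these, the brighter COL1A2 probe set lay just above the level in both lines (7.89 and 7.82). The brighter PDGFRB probe set left the floor with means below the level (7.09 and 5.41). VIM was bright in both lines (12.86 and 11.48), the brighter POSTN probe set was lower in IPEC-J2 (8.91 and 4.34, adjusted p = 0.000921 from limma) and the brightest of THY1 higher (4.00 and 11.93, adjusted p = 1.7e-05). The summed stromal signal on the linear scale lay between 5340 and 11300 in IPEC-1 and between 6570 and 8670 in IPEC-J2. Most of it came from VIM in IPEC-1 and from VIM and THY1 in IPEC-J2, so the sums do not rest on the same genes. Among 9 immune probe sets for 6 genes, none had a mean above the background level, and PTPRC was at the floor on all 6 arrays. The part of such cells in the results below was not tested.

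TGFA was represented by 1 probe set, Ssc.16220.1.S1_at. Its log2 signals in IPEC-J2 replicates 1, 2 and 3 were 8.20, 8.46 and 8.61, and all 3 IPEC-1 arrays stood at 4.00. All 3 cultures of IPEC-J2 thus lay above the background level, while no culture of IPEC-1 left the floor. The mean in IPEC-J2 was 8.42 ± 0.21 (SD, n = 3). This puts TGFA at least 1.49-fold higher than in IPEC-1, if the floor there stands for a level below background. With 1 probe set, that condition could not be checked. The log2 difference was 4.42 with the floor taken as a signal, 4.61 between the arrays of note A and 4.20 between those of note B.

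PTGS2 followed the same pattern at a brighter signal. The probe set Ssc.7314.1.A1_at had log2 signals of 8.78, 9.66 and 9.31 in IPEC-J2 replicates 1, 2 and 3, and 4.00 on each IPEC-1 array. The lowest IPEC-J2 signal came from replicate 1, the array with the most probe sets at the floor, and lay above the background level. The mean in IPEC-J2 was 9.25 ± 0.44 (SD, n = 3), at least 2.64-fold higher under the same condition, again by 1 probe set. With the floor taken as a signal, the log2 difference was 5.25 over all arrays, 5.31 within note A and 4.78 within note B. Of 16322 probe sets above the floor on at least 1 array, 229 (1.40%) shared the pattern of TGFA and PTGS2, the floor on all IPEC-1 arrays and a signal on all IPEC-J2 arrays, and 75 of them had an IPEC-J2 mean above the background level of IPEC-1.

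**Figure D1:**
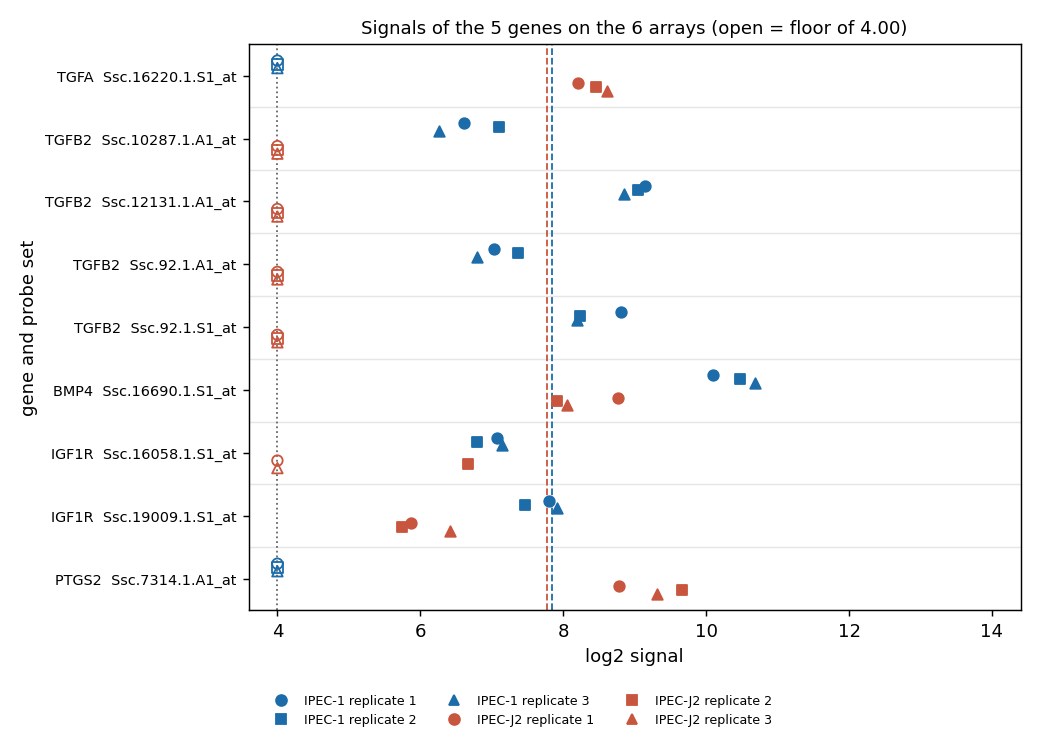
Log2 signal (x axis) of the 9 probe sets of TGFA, TGFB2, BMP4, IGF1R and PTGS2 (y axis) on the 3 IPEC-1 (blue) and 3 IPEC-J2 arrays (red), with 1 symbol per array; open symbols and the dotted line mark the floor of 4.00, and dashed lines the background levels of 7.85 (IPEC-1) and 7.78 (IPEC-J2). TGFA and PTGS2 left the floor only in IPEC-J2 and TGFB2 only in IPEC-1, and no probe set overlapped between the lines.

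TGFB2 had 4 probe sets, made from different sequence records, and all 4 were at 4.00 on all 3 IPEC-J2 arrays. Ssc.92.1.A1_at and Ssc.92.1.S1_at share the number 92.1 in their names, so the 4 are not taken as independent measurements. In IPEC-1 replicates 1, 2 and 3, the brightest, Ssc.12131.1.A1_at, had log2 signals of 9.15, 9.05 and 8.85. Ssc.92.1.S1_at had 8.81, 8.24 and 8.19. Both probe sets lay above the background level in every IPEC-1 culture, with means of 9.02 ± 0.15 and 8.41 ± 0.34 (SD, n = 3). TGFB2 was at least 2.36-fold and at least 1.55-fold lower in IPEC-J2 by these 2 probe sets.

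The other two TGFB2 probe sets were dimmer. Ssc.92.1.A1_at had log2 signals of 7.03, 7.37 and 6.80 in IPEC-1, and Ssc.10287.1.A1_at had 6.61, 7.10 and 6.26. All these values lie above the floor and below the background level, so no fold is given for them. These 2 probe sets varied together across the IPEC-1 cultures, with replicate 2 highest and replicate 3 lowest, whereas replicate 1 was the highest culture by the 2 bright ones. The 4 probe sets of TGFB2 therefore agreed on the direction between the lines and not on the order of the cultures within IPEC-1. With the floor taken as a signal, log2 differences were -5.02, -4.41, -3.07 and -2.66 from the brightest to the dimmest, between -5.15 and -2.61 within note A and between -5.05 and -3.10 within note B. Of all 16322 probe sets, 261 (1.60%) had signals on all IPEC-1 arrays and the floor on all IPEC-J2 arrays, 69 of them with an IPEC-1 mean above the background level of IPEC-J2.

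BMP4 was measured above the background level on all 6 arrays. The probe set Ssc.16690.1.S1_at had log2 signals of 10.10, 10.47 and 10.68 in IPEC-1 replicates 1, 2 and 3 and of 8.77, 7.92 and 8.05 in IPEC-J2. Taken for each IPEC-J2 array alone, the background level ranged from 7.552 to 7.945, and the signal of 7.92 lay inside this range. The lowest IPEC-1 culture lay 1.33 above the highest IPEC-J2 culture on the log2 scale, so the lines did not overlap. BMP4 averaged 10.42 ± 0.29 in IPEC-1 and 8.25 ± 0.46 in IPEC-J2 (SD, n = 3), a 4.50-fold lower level in IPEC-J2. The log2 difference of -2.17 was more than the SD of either line. It was -2.05 within note A and -1.70 within note B, where the IPEC-J2 array is the brightest of its line for BMP4. BMP4 is the only one of the 5 genes with a fold that does not depend on the floor or the background level.

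IGF1R had 2 probe sets from the same sequence record. The probe set Ssc.19009.1.S1_at had log2 signals of 7.80, 7.47 and 7.92 in IPEC-1 and of 5.87, 5.74 and 6.41 in IPEC-J2. Ssc.16058.1.S1_at had 7.07, 6.79 and 7.15 in IPEC-1, against 4.00, 6.67 and 4.00 in IPEC-J2. Both were lower in each IPEC-J2 culture than in any IPEC-1 culture, the first by a margin of 1.06 and the second by a margin of 0.12, which rests on IPEC-J2 replicate 2. In IPEC-1, replicate 2 was the lowest and replicate 3 the highest by both probe sets. In IPEC-J2 they differed, since replicate 2 was the lowest by one and the highest by the other.

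Mean log2 signals of IGF1R were 7.73 ± 0.23 in IPEC-1 and 6.01 ± 0.36 in IPEC-J2 for the first probe set, and 7.00 ± 0.19 and 4.89 ± 1.54 for the second (SD, n = 3). The log2 differences were -1.72 and -2.11. All 4 means were below the background levels, so the size of the IGF1R difference is the least certain of the 5 genes. Without IPEC-J2 replicate 2, the difference of the second probe set was -3.00, and with all values below 6 set to 6 it was -0.78. Within notes A and B, it was -1.39 and -1.60 for the first and -3.07 and -2.79 for the second probe set.

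**Figure D2:**
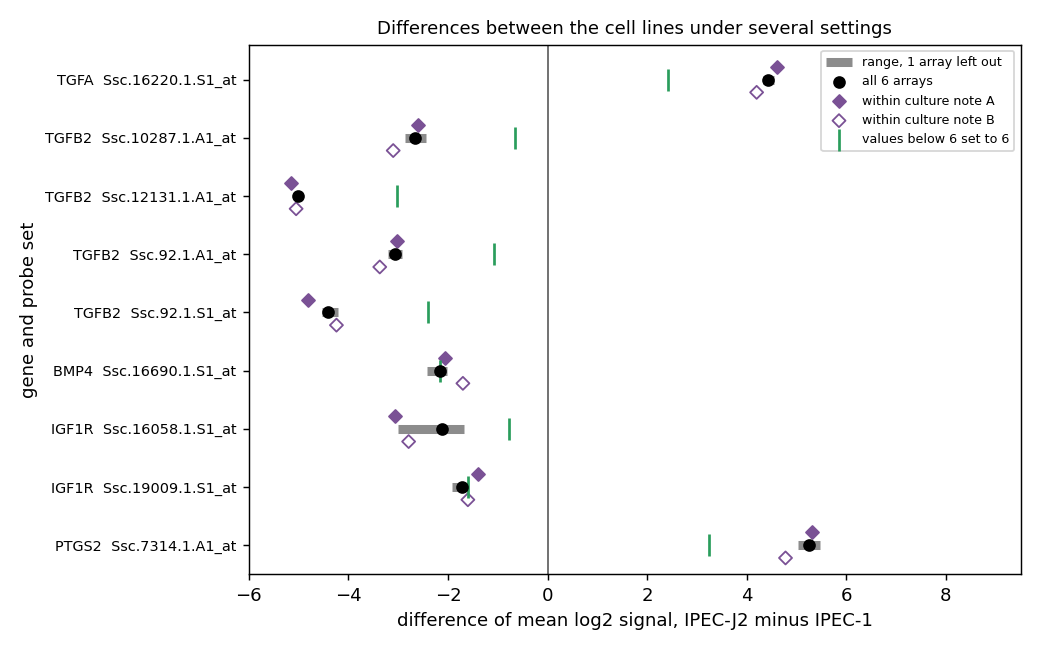
Difference of mean log2 signals, IPEC-J2 minus IPEC-1 (x axis), for the 9 probe sets (y axis) over all 6 arrays (black), within culture notes A and B (diamonds, 1 array per line), with values below 6 set to 6 (green) and as the range with 1 array left out (grey). All stay on their side of 0, while raising low values to 6 shortens each difference that rests on the floor, such as that of TGFA from 4.42 to 2.42.

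In all 9 probe sets the 3 arrays of one line lay above those of the other, in 2 of them those of IPEC-J2 and in 7 those of IPEC-1. Among the 16322 probe sets this was the case in 41.3%, with IPEC-J2 above in 17.4% and IPEC-1 above in 23.9%. The count of the 9 follows from the choice of the genes. The median log2 difference over all 16322 probe sets was -0.07.

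**Figure D3:**
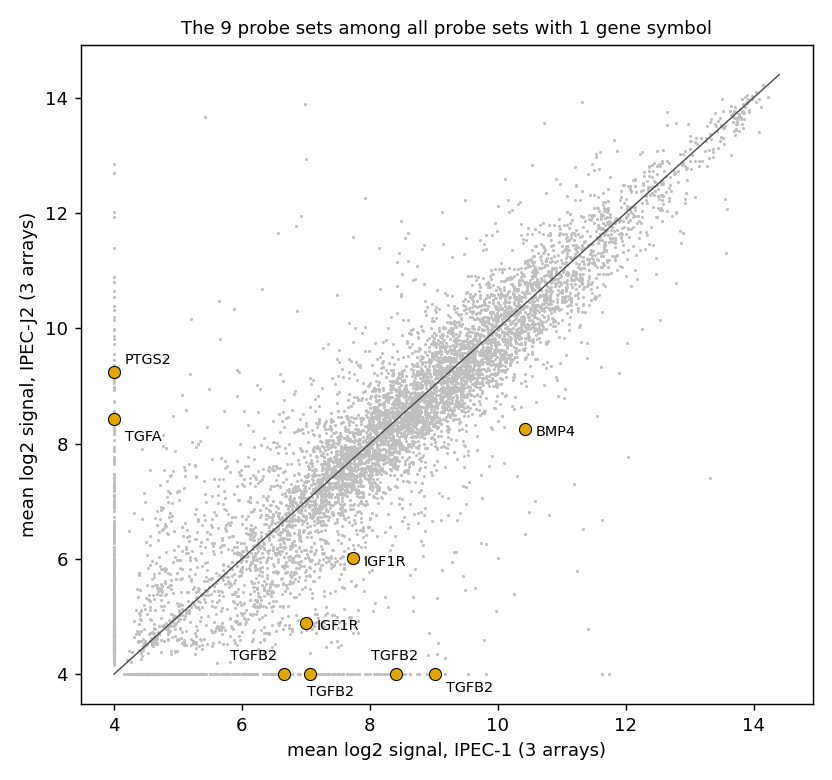
Mean log2 signal in IPEC-1 (x axis) and IPEC-J2 (y axis), 3 arrays each, for all probe sets with 1 gene symbol above the floor on at least 1 array (grey) and for the 9 probe sets of the 5 genes (yellow); the line marks equal signals. TGFA and PTGS2 lie on the IPEC-1 floor, the TGFB2 probe sets on the IPEC-J2 floor, and BMP4 and IGF1R below the line of equality.

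To place the 5 genes in their pathways, 122 other ligands, receptors, inhibitors, transducers, targets and enzymes were listed in 5 groups. Of these, 55 genes were on the array with 1 symbol, with 100 probe sets, 40 of which were at the floor on all arrays. The remaining 60 probe sets, for 37 genes, were compared between the lines with limma, adjusted over all 16322 probe sets. Of the 60, 5 were higher and 13 lower in IPEC-J2 at an adjusted p under 0.05, where 8.79% and 10.2% of all probe sets were called higher and lower (19.0% in either direction). The 60 probe sets come from 37 genes and 7 of the 13 lower ones belong to IGF2 alone.

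**Figure D4:**
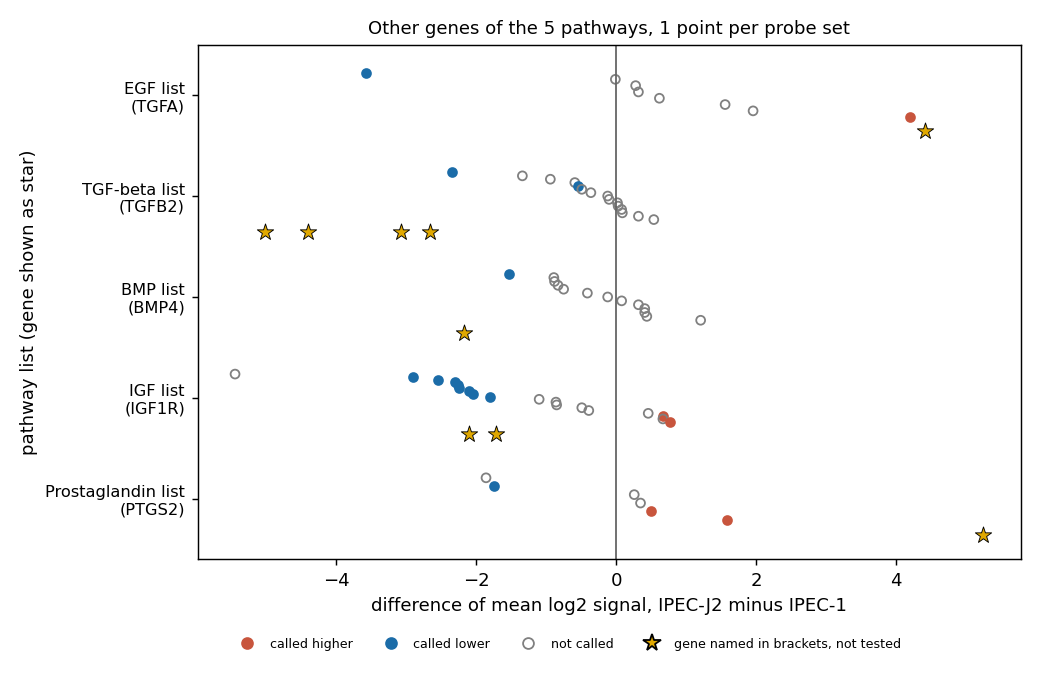
Difference of mean log2 signals, IPEC-J2 minus IPEC-1 (x axis), for each of the 60 probe sets, arranged by the 5 pathway lists (y axis), filled red where called higher and blue where called lower at an adjusted p under 0.05 from limma; stars are the genes described here, which were not tested. HBEGF is the called higher point of the EGF list, and the lower calls of the IGF list are 7 probe sets of IGF2 and 1 of IGFBP5.

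Among EGF family genes, 1 of 8 probe sets was higher and 1 lower, with a median log2 difference of 0.47. HBEGF, which encodes another membrane-bound ligand of the EGF receptor, had log2 signals of 8.15, 8.53 and 7.94 in IPEC-J2 replicates 1, 2 and 3 and stood at the floor throughout IPEC-1. The level in IPEC-J2 was higher by at least 1.28-fold, with a log2 difference of 4.21 (SE 0.18, adjusted p = 0.000104 from limma). That difference, SE and p-value take the floor as a signal, and the spread of HBEGF between IPEC-1 cultures is unknown. LRIG1, an inhibitor that promotes breakdown of the EGF receptor, differed the other way, with 10.84, 10.71 and 10.22 in IPEC-1, against 6.72, 6.95 and 7.37 in IPEC-J2. Its log2 difference was -3.58 (SE 0.25, adjusted p = 0.000645 from limma), or at least 7.01-fold lower against the background level.

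The receptor itself, EGFR, was bright in both lines. Its 2 probe sets had log2 differences of 0.28 (SE 0.12, adjusted p = 0.163 from limma) and 0.32 (SE 0.13, adjusted p = 0.147), neither past the threshold. The ligand AREG had signals of 6.70, 4.00 and 6.49 in IPEC-1, against 7.80, 7.67 and 7.60 in IPEC-J2, a difference of 1.96 with an SE of 0.75 that did not pass (adjusted p = 0.137 from limma). AREG passed in 2 of 17 other settings, without IPEC-1 replicate 2 and with values below 6 set to 6 (lowest adjusted p = 0.00528 from limma). Both AREG means, 5.73 and 7.69, lay below the background levels. The protease ADAM17, which releases TGFA, differed by -0.01 by its brighter probe set (adjusted p = 0.985 from limma), with both means below the background level. Its other probe set was at the floor in IPEC-1 and read 6.24, 6.45 and 4.00 in IPEC-J2 (difference 1.56, adjusted p = 0.173 from limma). EGF was at the floor on all arrays.

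Of 15 TGF-beta probe sets, none was higher and 2 were lower, with a median of -0.12. TGFBR3, the co-receptor betaglycan that presents TGFB2 to its signaling receptors, had log2 signals of 6.41, 6.06 and 6.54 in IPEC-1 and stood at the floor throughout IPEC-J2. The log2 difference was -2.34 (SE 0.16, adjusted p = 0.000550 from limma), below the background level throughout and not called with values below 6 set to 6. The co-repressor TGIF1 was 1.46-fold lower by 1 of 2 probe sets (adjusted p = 0.0414 from limma), a call that ended without any one of 5 arrays, IPEC-1 replicate 1 being the exception (up to 0.129).

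The sister ligand TGFB1 was measured in both lines by 2 probe sets, with log2 differences of -0.36 (SE 0.11, adjusted p = 0.0874 from limma) and 0.02 (SE 0.11, adjusted p = 0.936). The receptor TGFBR1 differed by 0.03 by its brighter probe set (SE 0.16, adjusted p = 0.920 from limma), and the common mediator SMAD4 by 0.09 (SE 0.13, adjusted p = 0.628). The ligand TGFB3 was at the floor on all arrays. The activin subunit gene INHBA differed by 0.54 without passing (adjusted p = 0.0756 from limma).

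Of 13 BMP probe sets, none was higher and 1 was lower, with a median of -0.12. ID3, an inhibitor of differentiation factors and a known BMP target, had log2 signals of 12.52, 12.44 and 12.45 in IPEC-1, against 10.65, 11.23 and 10.94 in IPEC-J2, 2.89-fold lower (log2 difference -1.53, SE 0.17, adjusted p = 0.00432 from limma). Its relative ID1 had values of 12.46, 12.01 and 12.62 against 11.39, 11.86 and 11.17, a difference of -0.89 that did not pass (adjusted p = 0.0664 from limma). The receptor BMPR1B had differences of -0.88, -0.83 and -0.75 by its 3 probe sets, none of which passed (adjusted p = 0.0584, 0.453 and 0.0536 from limma). The receptor BMPR1A differed by 0.41 (SE 0.15, adjusted p = 0.133 from limma) and the mediator SMAD1 by 0.08 (SE 0.21, adjusted p = 0.806). ID1 and the 2 brighter BMPR1B probe sets passed in 5, 6 and 6 of 17 other settings (adjusted p from 0.0199 to 0.206 over all 17, from limma or the methods' t-test), so the count of lower BMP genes depends on the processing. BMP7 was at the floor on all arrays.

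In the IGF list, 8 of 18 probe sets were lower and 2 higher (55.6%), with a median log2 difference of -1.46. These calls belong to 3 of 7 genes. IGF2, the fetal insulin-like growth factor and a ligand of IGF1R, was lower by 7 of 9 probe sets, with differences between -2.90 and -1.81. The pair of probe sets with the largest of these differences, -2.90 and -2.55, had IPEC-1 means of 6.90 and 6.55, below the background level, and stood at the floor in IPEC-J2. The second was not called with values below 6 set to 6 (adjusted p = 0.102 from limma). The brightest, Ssc.20525.1.S1_at, had log2 signals of 13.49, 13.43 and 13.78 in IPEC-1, against 11.11, 11.49 and 11.34 in IPEC-J2, 4.77-fold lower (log2 difference -2.25, SE 0.16, adjusted p = 0.000755 from limma). Several IGF2 probe sets come from 1 sequence cluster, and those whose names end in _x_at can bind other transcripts, so they are not independent measurements. Of the 2 that were not called, Ssc.9365.3.S1_x_at read 11.00, 11.31 and 11.41 in IPEC-1, against 4.00, 9.36 and 4.00 in IPEC-J2 (difference -5.45, SE 1.54, adjusted p = 0.0649 from limma). IPEC-J2 replicate 2 alone was above the floor, as for the second IGF1R probe set. Ssc.9365.3.S1_a_at, which shares the number 9365.3, read 9.19, 9.31 and 8.84 on the IPEC-J2 arrays. A floor value thus occurred where another probe set of the gene read above the background level.

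IGFBP5, a binding protein that regulates access of IGFs to their receptor, had log2 signals of 9.18, 8.91 and 9.29 in IPEC-1, against 7.20, 6.90 and 7.16 in IPEC-J2. It was at least 2.54-fold lower against the background level (log2 difference -2.04, SE 0.16, adjusted p = 0.000974 from limma). The adaptor GRB2 was higher by both probe sets, 1.70-fold and 1.59-fold (adjusted p = 0.00687 and 0.0143 from limma), the second not without IPEC-J2 replicate 3 (0.0586). Neither was called with only the arrays of notes A and B (adjusted p up to 0.0834 and 0.11) or with the replicate number as a block (0.0725 and 0.096). IGF1 left the floor on 1 IPEC-1 array by one probe set and on 1 array of each line by the other. The insulin receptor gene INSR left it only on IPEC-1 replicate 2 (6.54), and IGF2R, IRS1, IGFBP1, IGFBP2 and IGFBP6 were at the floor on all arrays.

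In the prostaglandin list, 2 of 6 probe sets were higher and 1 lower, with a median of 0.30. PTGES, the inducible synthase that turns the product of PTGS2 into prostaglandin E2, had log2 signals of 10.71, 10.77 and 10.77 in IPEC-1, against 12.44, 12.27 and 12.32 in IPEC-J2. IPEC-J2 exceeded IPEC-1 by 3.02-fold, a log2 difference of 1.59 (SE 0.11, adjusted p = 0.000558 from limma). PTGES3, the cytosolic synthase, differed by 0.35 and 0.26 without passing (adjusted p = 0.453 and 0.542 from limma).

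Among enzymes that reduce prostaglandin metabolites, PTGR2 had log2 signals of 10.40, 10.18 and 10.51 in IPEC-1, against 8.40, 8.73 and 8.75 in IPEC-J2, 3.33-fold lower (log2 difference -1.74, SE 0.16, adjusted p = 0.00196 from limma). PTGR1 was 1.41-fold higher (adjusted p = 0.0463 from limma), a call that ended when any 1 array was left out (up to 0.120). PTGS1, the constitutive cyclooxygenase, read 9.58 on IPEC-1 replicate 3 and 4.00 on the other 5 arrays (adjusted p = 0.453 from limma). The prostaglandin receptor genes PTGER3 and PTGFR were at the floor on all arrays.

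**Figure D5:**
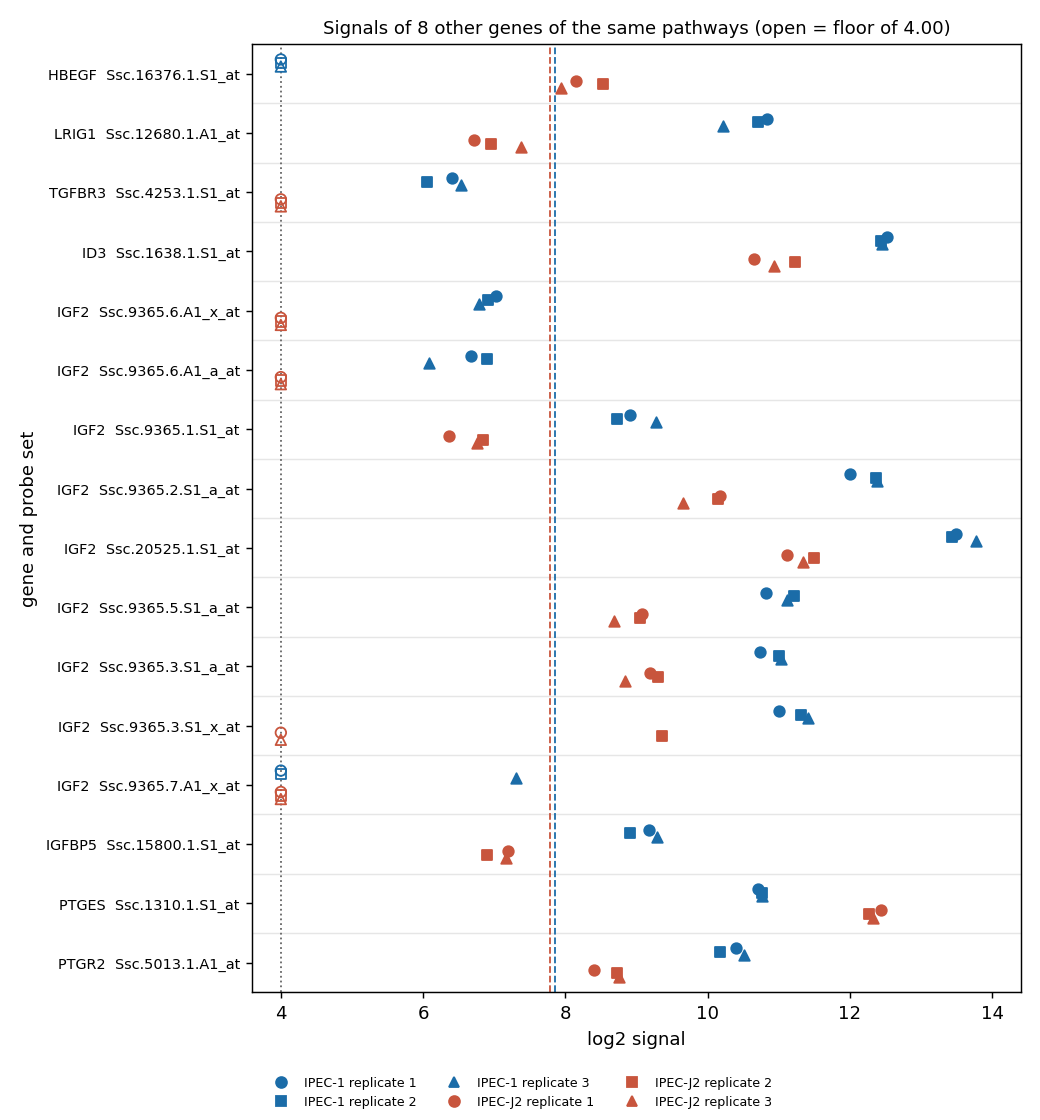
Log2 signal (x axis) of HBEGF, LRIG1, TGFBR3, ID3, all 9 IGF2 probe sets, IGFBP5, PTGES and PTGR2 (y axis) on the 3 IPEC-1 (blue) and 3 IPEC-J2 arrays (red); open symbols and the dotted line mark the floor of 4.00, dashed lines the background levels. HBEGF and PTGES were brighter in IPEC-J2, the others in IPEC-1, apart from the IGF2 probe set Ssc.9365.7.A1_x_at, which left the floor on 1 array.

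The probe sets of other genes closest in pattern were found for the brightest probe set of each gene, as the smallest root mean square difference over the 6 arrays after each was centred on its own mean. TGFA was closest to TM4SF1, a membrane protein (0.0525), CELF2, a splicing regulator (0.0795), and GATA2, a transcription factor (0.132). PTGS2 was closest to S100A4 (0.0787), a calcium-binding protein, PRR15 (0.0953) and THY1 (0.147), a surface glycoprotein and the stromal marker mentioned above. All 6 stood at the floor throughout IPEC-1, so the likeness rests on the floor and the mean in IPEC-J2. For TGFB2 the closest were NLN (0.0911), METRNL (0.111) and GULO (0.140), which left the floor in IPEC-1 only.

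BMP4 and IGF1R have no floor value in their brightest probe sets. Their distances still include the difference between the lines, and variation within the lines was not compared separately. BMP4 was closest to ADSSL1 (0.228), an enzyme of purine synthesis in muscle, and next to 2 probe sets of IGF2 (0.261 and 0.263), which fell by 2.11 and 2.26 on the log2 scale where BMP4 fell by 2.17. IGF1R was closest to HMCES (0.131), SAMD12 (0.160) and PTGR2 (0.197). The HMCES means of 5.81 in IPEC-1 and 4.21 in IPEC-J2 were below the background levels, the latter close to the floor. Between the 5 genes themselves, this distance was 0.455 for TGFA and PTGS2 and 0.475 for BMP4 and the brighter IGF1R probe set. For BMP4 and the dimmest TGFB2 probe set it was 0.489. The genes were chosen for their difference between the lines, which these distances include, so they are a description only. Between the 4 TGFB2 probe sets the distance ranged from 0.219 to 1.20, and it was 1.05 between the 2 of IGF1R.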

How the data were processed

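The 6 arrays were grouped by cell line, and numbered, from the titles of the sample labels. The authors deposited 1 table of log2 signals for 24123 probe sets, for which the submitters' processing notes name GCOS 1.1.1 and PLIER, a probe summary method. The methods also name global scaling and background correction. Neither the log base nor how arrays were normalized to each other is stated for the table. Log2 was read from the floor at the log2 of 16, and no further scaling was applied. Detection calls were not used. Precision is limited by the number of arrays. No 2 arrays held the same values.

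After 124 control probe sets were left out, the platform annotation gave 1 symbol to 10069 probe sets, several to 198 and none to 13732. The 5 genes carry the same symbols in the RefSeq gene table. Sequences and genome positions were not used here. Probe sets at the floor on every array (7677) were left out of the fit, since they have no spread and cannot be called.

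The difference between lines was fitted with limma (version 3.58.1, R 4.3.3; lmFit, then eBayes, unpaired, Benjamini-Hochberg over 16322 probe sets, threshold 0.05), which was tested on simulated data. With 3 arrays per line, 0.1 is the smallest two-sided p of an exact permutation test. The pathway lists were written from general knowledge. Named were the 5 genes, fixed receptors and enzymes, up to 4 called probe sets per list and direction, and the 3 probe sets closest in pattern; ERBB2, ERBB3, TGFBR2, BMPR2, PTGER2 and PTGER4 are not analysed here. AREG, ADAM17, EGF, TGFB1, TGFB3, SMAD4, INHBA, ID1, BMPR1B, SMAD1, BMP7, IGF1, PTGES3 and the other genes at the floor were named after their values were seen. The genes, lists and background level were chosen with earlier results of these data known. Alternatives covered scaling, offset, low values, moderation, pairing, culture note, the methods' t-test, probe set averages and single arrays left out.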

Additional observations from a re-analysis of the deposited data

How the results depend on the processing

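Of 123 alternative values of the 9 probe sets, 97 moved by less than 1 SD between replicates and 26 by more. None changed sign, which the lack of overlap between the lines fixes for every setting that leaves out arrays or only changes low values. With 16 added to the linear signal, the log2 difference (IPEC-J2 minus IPEC-1) was 3.49 for TGFA, 4.29 for PTGS2 and -4.06, -3.48, -2.23 and -1.87 for the TGFB2 probe sets from brightest to dimmest. With values below 6 set to 6, these were 2.42 for TGFA, 3.25 for PTGS2, -3.02, -2.41, -1.07 and -0.66 for TGFB2, and -0.78 for the dimmer IGF1R probe set. Both settings raise the floor by construction. Averaged per symbol, TGFB2 differed by -3.79. Within note A, the values that moved were 4.61 (TGFA), -5.15 and -4.81 (bright TGFB2 probe sets) and -1.39 (brighter IGF1R probe set). Within note B they were 4.20 (TGFA), -3.10 and -3.37 (dim TGFB2 probe sets), -1.70 (BMP4) and 4.78 (PTGS2). With 1 array left out, the dimmer IGF1R probe set ranged from -3.00 to -1.67.

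The counts over all probe sets, 1435 higher and 1660 lower, were 1815 and 1736 after subtracting the 75th percentile of each array, 498 and 631 with only the arrays of notes A and B, 2387 and 2934 by the methods' t-test without adjustment, 1358 and 1522 with it, and 662 and 762 genes after averaging per symbol. With 1 array left out they ranged from 722 to 1569 and from 870 to 1300, with the lowest counts of both without IPEC-J2 replicate 3. Lower calls also dropped to 1050 without IPEC-1 replicate 2 and 965 without IPEC-1 replicate 3, and higher calls to 865 without IPEC-J2 replicate 2. The replicate numbers did not pair the arrays, since deviations of same-numbered arrays correlated by -0.229, -0.337 and 0.0589. Deviations correlated by 0.284 between the arrays of note A, by 0.481 between those of note B, and by 0.354 between IPEC-1 replicate 3 and IPEC-J2 replicate 2, which carry different notes. With the replicate numbers as a block, 465 were higher and 493 lower. Of the pathway probe sets, 2 were then higher in place of 5 and 12 lower in place of 13.

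The pathway counts of 5 higher and 13 lower were 8 and 15 with quantile normalization, 8 and 13 with 75th percentile centring, 2 and 13 with only notes A and B, 9 and 19 by the methods' t-test without adjustment and 4 and 8 genes after averaging per symbol. Over 17 settings, 0 to 2 BMP probe sets were higher in place of 0 and 1 to 4 lower in place of 1, 0 to 1 TGF-beta probe sets higher in place of 0 and 1 to 4 lower in place of 2, and 0 to 3 IGF probe sets higher in place of 2. BMP had 4 lower with values below 6 set to 6, with low means removed, with trend and robust options and with the note as a random block. With 1 array left out, 4 to 7 were higher and 12 to 13 lower. An alternative added after seeing the data took notes A and B as a fixed block over their 4 arrays, which leaves 1 residual degree of freedom. Limma then called 0 higher and 0 lower probe sets in all and in the pathway lists, while 3884 had an unadjusted p under 0.05, 22 of them in the lists. With the note as a random block, 1768 were higher and 2145 lower, 5 and 17 in the lists.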

Other observations

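Several genes of these pathways left the floor on only 1 or 2 arrays. ID4, a further target of BMP signaling, read 7.87 on IPEC-1 replicate 3 and 7.50 on IPEC-J2 replicate 2, and 4.00 on the other 4 arrays. IGF1 read 7.27 and 5.81 on the same arrays by the probe set Ssc.16231.1.S1_a_at. PTGS1 (9.58) and an IGF2 probe set (7.30) left the floor on IPEC-1 replicate 3 alone, and a probe set of the BMP and activin antagonist FST (7.63) on IPEC-J2 replicate 2 alone. Others left it elsewhere, BAMBI (5.31) on IPEC-J2 replicate 1, INSR (6.54) on IPEC-1 replicate 2, the other IGF1 probe set (6.58) on IPEC-1 replicate 1, and ACVR2B on IPEC-1 replicate 1 (5.97) and IPEC-J2 replicate 3 (5.60). IPEC-J2 replicate 2 was also the only array of its line with a signal for the dimmer IGF1R probe set (6.67). Over all 23999 probe sets, 98 were above the floor on IPEC-1 replicate 3 and IPEC-J2 replicate 2 only, and between 12 and 75 on each other pair of 1 array per line. IPEC-J2 replicate 2 had 406 probe sets above the floor on no other array, against 109 to 270 for the other arrays, with 270 on IPEC-1 replicate 3. IPEC-1 replicate 3 and IPEC-J2 replicate 2 also had the fewest probe sets at the floor in their lines, 42.1% and 40.5%. These genes were named after their values were seen, and whether such signals are transcripts or noise was not tested.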
